A study of Homo sapiens with 4 samples.

Results

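The cytosolic ribosomal protein genes encode the protein parts of the ribosomes that translate messenger RNA outside mitochondria. Members were taken by name, as every row whose whole gene name is RPL or RPS followed by digits and an optional A or X, together with RPLP0, RPLP1, RPLP2 and RPSA. This gave 77 of the 56809 gene rows, 46 for proteins of the large (60S) subunit and 31 for proteins of the small (40S) subunit. All 77 were among the 17885 genes that passed the filter on low counts, and no library held fewer than 3155 or more than 101055 counts of a member.

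The cells were NCI-H929, an established human multiple myeloma (malignant plasma cell) line expressing the nuclease Cas9, and poly(A) RNA was sequenced. The study compared cells given a doxycycline-inducible construct to knock out (KO) BCL7A, which encodes a BAF (SWI/SNF) chromatin remodelling subunit, with control cells, in 2 libraries each. All cells carried Cas9, and per the protocol both kinds were transduced, selected with puromycin for 3 days and then given doxycycline at 0.5 ug/ml for 24 h. Titles name the controls wild type, although by the protocol a control construct was given. Since no label says whether the libraries are from separate cultures or clones, p-values cover only the spread among these 4, possibly technical, libraries.

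Gene counts summed to between 38671744 and 40799624 in the KO libraries and between 17567202 and 20153596 in the control libraries. BCL7A itself was at 1.31 and 1.19 CPM (CPM, each count relative to a library's total, adjusted with TMM factors) in the KO libraries and at 42.9 and 45.7 CPM in the controls (log2 fold change -5.15, SE 0.11). The libraries also differed in cell type markers. The 8 plasma cell markers examined were all higher in the KO and summed to 11649 and 11632 CPM against 6566 and 6617 CPM, whereas the 8 mature B cell markers summed to 32.9 and 35.9 against 411 and 424 CPM, with 5 lower and 1 higher of 6 tested. Of 5 tested epithelial and stromal markers 3 were lower, among them EPCAM (51.4 and 54.4 CPM in the controls and no count in the KO), and 2 higher. Their sum of 1035 and 1039 against 582 and 596 CPM was mostly VIM (1027 and 1031 against 509 and 520 CPM). By the test given below, 36.4% of all tested genes were higher and 39.8% lower. Of the 938 tested genes outside the family with a mean of at least 179 CPM, 78.9% were higher. Each plasma cell marker was above that level, so their shared direction is common among abundant genes here. T cell markers summed to at most 29.3 CPM, erythroid ones to at most 5.09 CPM and myeloid ones to at most 1.31 CPM in any library. CD74, a mature B cell marker, was at 1.17 and 1.65 CPM against 263 and 269 CPM. Whether both groups stem from the same passage or clone is not said in the labels, so any such difference and the loss of BCL7A cannot be told apart in the values below. The part of the marker differences was not tested, and in such bulk samples fewer cells of a type and less RNA per cell cannot be told apart.

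Ribosomal proteins are made in near-equal numbers, since a ribosome holds a single copy of most of them, and their genes are among the most active of a growing cell. Their mRNAs typically begin with a cytosine followed by a run of pyrimidines (C or T in the gene), the terminal oligopyrimidine (TOP) motif, through which mTOR signalling and the binding protein LARP1 set how well they are translated. In plasma cells and myeloma cells the ribosome supply serves the production of large amounts of antibody, and ribosomal protein genes are best known in disease for the inherited anaemias that follow the loss of a gene copy.

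Of the sequence features searched, a run of pyrimidines at the mRNA start was the one found most often in the members' windows. RefSeq promoter windows (GRCh38.p14, 250 bases before to 50 after each annotated start) were at hand for 62 of the 77 members, with 77 windows between them. The start with the longest pyrimidine run of each gene is shown for 8 of the members that the results turn on, 4 that were higher in the KO (RPS24, RPS27, RPL10 and RPL38) and 4 that were lower (RPS6, RPS3, RPL36A and RPS4X). Each line reads 5′ to 3′ on the gene's strand and gives the 20 bases before the start and the first 10 of the transcript, with capitals marking the pyrimidines that run on from the start.
RPS24: ttggccggcgaatcgtggttCTCTTTTCCT
RPS27: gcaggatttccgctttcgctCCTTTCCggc
RPL10: atgcgcaggcggaggagcgcCTCTTTCCCT
RPL38: ccggaaacggaagtctcgttCTTTTTCgtc
RPS6: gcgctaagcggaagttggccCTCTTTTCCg
RPS3: cttccgcccgcgagccacttCCTTTCCTTT
RPL36A: ttccgtttgcctcgcggtttCTTTCTTTCC
RPS4X: cgcgcgcagtctccagccccaatttctacg
The windows lie at chr10:78033843-78033872 (RPS24, plus strand), chr1:153990742-153990771 (RPS27, plus), chrX:154398357-154398386 (RPL10, plus), chr17:74203658-74203687 (RPL38, plus), chr9:19380227-19380256 (RPS6, minus), chr11:75399498-75399527 (RPS3, plus), chrX:101390991-101391020 (RPL36A, plus) and chrX:72277239-72277268 (RPS4X, minus). Members that were higher and members that were lower in the KO both start with such a run, and of these 8 only the annotated start of RPS4X had none in this window.

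Over all members with windows, a C with 4 further pyrimidines stood at the start in 46 of 77 windows (59.7%), against 4.80% of the 15769 windows of tested protein-coding genes outside the family and 4.07% of all 35116 windows in the table. Searched on both strands of the whole window, CCGGAA, the core bound by ETS factors, was in 51.9% of the members' windows, against 25.5% of those of the other tested genes. AAGATGG (the YY1 core) was in 10.4% against 6.81%, GGGCGG (the GC box) in 54.5% against 64.3%, TATAAA (the TATA box) in 6.49% against 6.46% and CACGTG (the E box) in 5.19% against 9.23%; a window may hold several. Counted by gene, the 46 members with a pyrimidine start had a median log2 fold change of 0.19 (31 higher, 13 lower by the test given next), and the 16 without one had a median of 0.09 (8 higher, 3 lower). The 35 members with the ETS core had a median of 0.10 and the 27 without it a median of 0.21. These are descriptions of letters in a window, and no difference between these sets was tested.

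The next question was whether the family as a whole was higher or lower in the KO, and the answer depended on how libraries were scaled. As a share of all gene counts, members took 5.80% and 5.67% in the KO libraries and 6.22% and 6.42% in the controls, so both KO libraries were lower. After TMM scaling, which sets the bulk of genes level between libraries, the members summed to 63906 and 62649 CPM in the KO and 56523 and 58272 CPM in the controls, so both KO libraries were higher. These sums are given without a test, since a two-sided exact permutation test of 2 against 2 libraries can give no p below 0.333. The median log2 fold change of the members was 0.17 with TMM factors and -0.11 with counts scaled to the library total only, where every member shifted by -0.28. A member with a log2 fold change between 0 and 0.28 on the TMM scale is thus below 0 on the scale of library totals, which holds for each such direction given below. Their median lay 0.22 above that of all tested genes, a difference that such a shift leaves as it is, but 0.48 above with no filter on low counts and 0.13 above with a stricter one.

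Gene by gene, edgeR's quasi-likelihood test with TMM factors and Benjamini-Hochberg adjustment over all tested genes called 47 members higher in the KO (61.0%) and 20 lower (26.0%) at an adjusted p under 0.05, and 10 passed in neither direction. Of all tested genes 36.4% were called higher and 39.8% lower, 76.2% in all, so a call by itself sets no gene apart in this comparison. The members' split turned with scaling: with library totals only, 22 were called higher and 45 lower, and with upper-quartile factors 35 and 29. Log2 fold changes ran from -0.91 to 0.70, a 3.04-fold span, with quartiles of -0.06 and 0.39. No member changed 2-fold on the TMM scale, although RPS4X (-1.04) and RPL8 (-1.01) did so with upper-quartile factors. Changes of at least 1.5-fold with a call were seen for 8 members upwards and 2 downwards, against 20.5% of all tested genes upwards and 30.2% downwards.

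**Figure D1:**
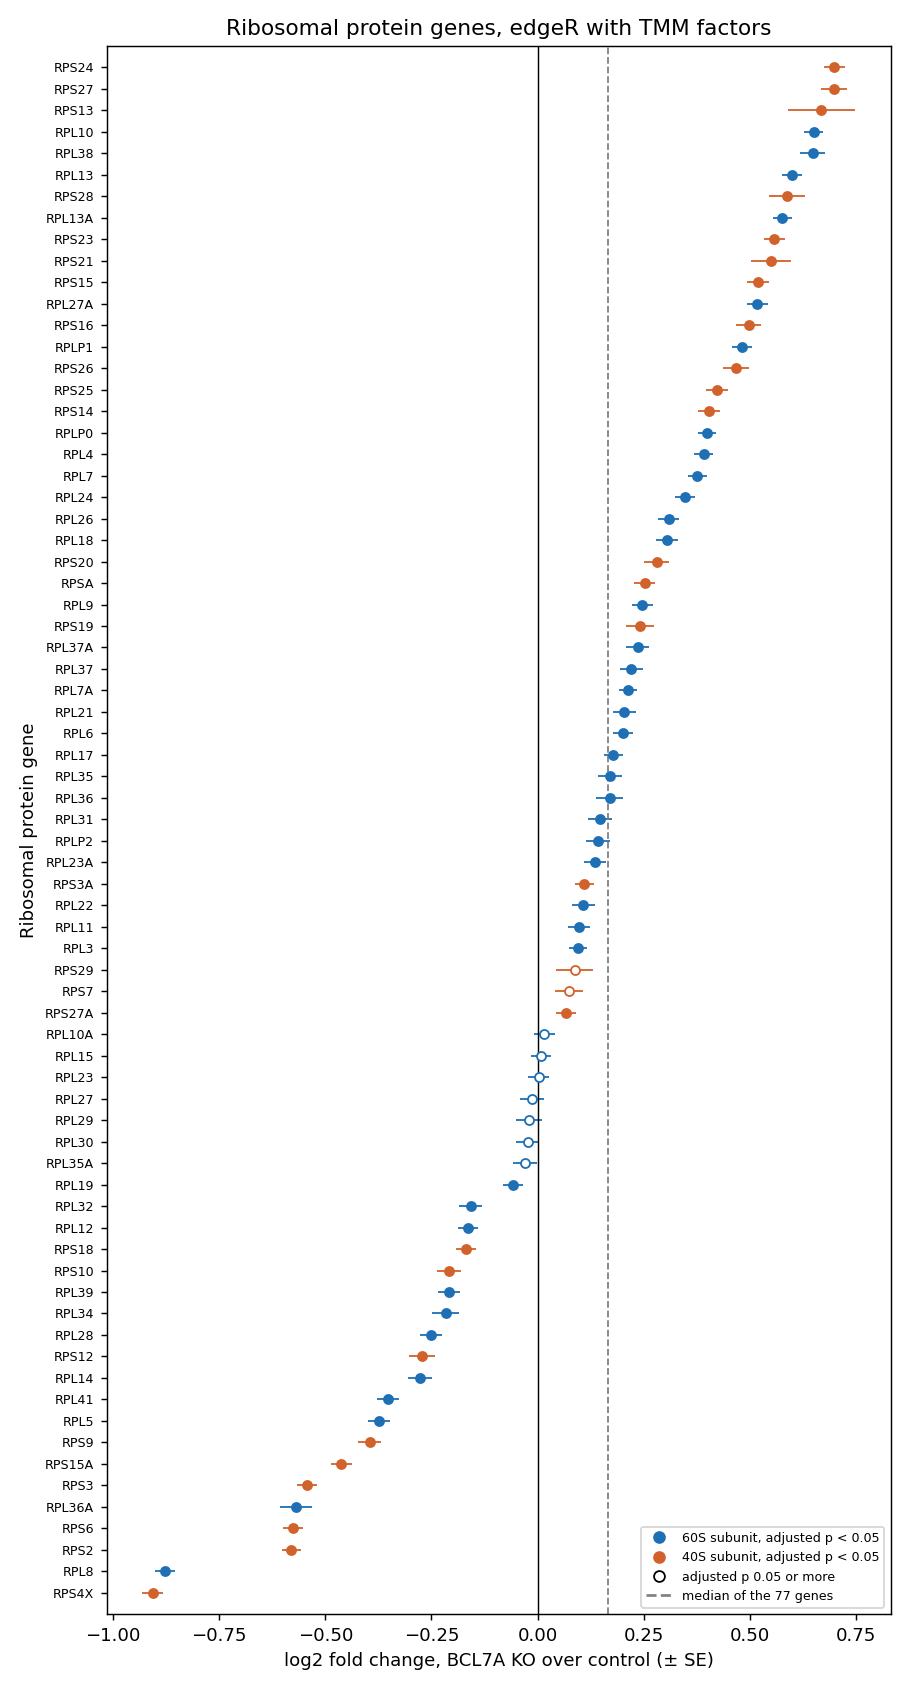
Log2 fold change (KO over control, x axis) of 72 of the 77 members (y axis, sorted) with its SE as a bar, coloured by subunit, open where the adjusted p was 0.05 or more. RPS4X and RPL8 lie apart at the low end at -0.91 and -0.88, while the high end runs on without a gap to 0.70.

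The members were set beside other abundant genes, a difference that was not tested. These genes had a lower limit on level but were not matched to the members' levels. The 938 tested genes outside the family with a mean level at or above that of the lowest member (179 CPM) had a median log2 fold change of 0.52 (quartiles 0.13 and 0.85), and 94.7% of them were called, 78.9% higher and 15.8% lower. Of these 938 genes 73.3% lay above the members' median. The standard deviation over genes was 0.37 for the members, 1.00 for these genes and 2.06 for all tested genes. The members' spread was still far wider than the noise between libraries: over the 77 members the log2 ratio of the KO libraries to each other had an SD of 0.026, and that of the control libraries an SD of 0.047. Libraries of a group nonetheless differed by more than counting noise (over the members, chi-square per degree of freedom was 4.37 in the KO and 5.95 in the controls) and were kept as separate replicates.

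**Figure D2:**
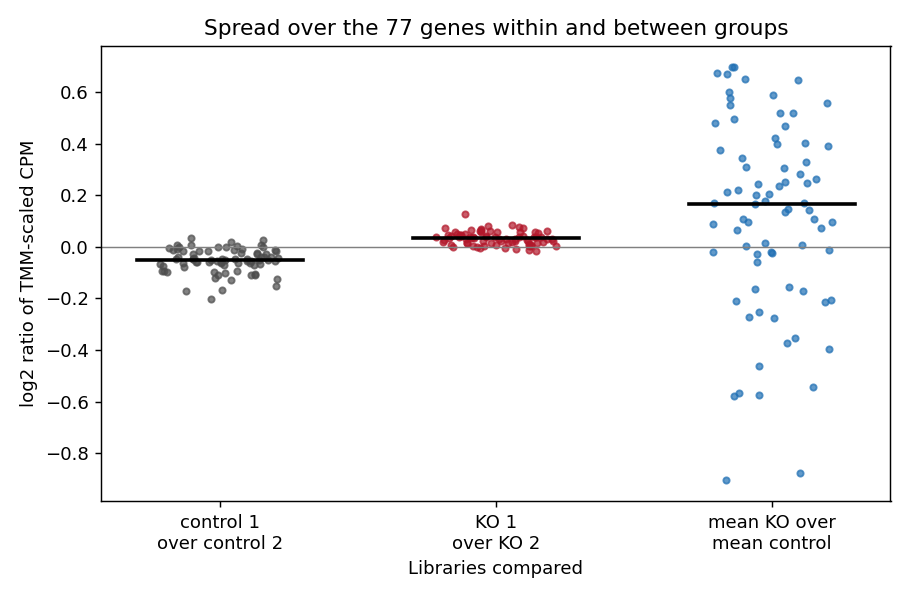
Log2 ratios of TMM-scaled CPM (y axis) for the 77 members, between the control libraries, between the KO libraries and between the group means; each point is a gene and each bar the median. The spread between groups (SD 0.37) exceeded that between the control (SD 0.047) or the KO libraries (SD 0.026).

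To find members that depart from the rest, each was also tested relative to the summed counts of all 77 members, a measure that no scaling of the other genes can shift. By this measure 32 members took a larger share of the ribosomal protein counts in the KO, 28 a smaller one, and 17 did not pass. Of all tested genes 30.2% were called higher and 45.3% lower relative to this sum, 75.5% in all. The log2 fold changes given below are from the fit with TMM factors unless they are called shares. The members described next stand out by fold change in these same 4 libraries. That their groups do not overlap is therefore no separate support.

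RPS4X departed most. It encodes the X-linked form of a small subunit protein and lies at chrX:72255679-72277300 on the minus strand. Its level was 543 and 533 CPM in the KO libraries and 992 and 1024 CPM in the controls, so the groups lay far apart beside their own spread. The log2 fold change was -0.91 (SE 0.02, adjusted p = 6.61e-23 by edgeR), a 1.87-fold lower level. Its share of all ribosomal protein counts was 0.85% in both KO libraries and 1.76% in both control libraries. The 20 tested protein-coding genes nearest to it, 10 on each side, had a median log2 fold change of 0.02, with 8 called higher and 7 lower, and with 5 on each side the median was -0.13.

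RPL8, a large subunit protein close to the peptidyl transferase centre where peptide bonds form, was next (chromosome 8, 144789765 to 144792587, minus strand). Its KO libraries stood at 666 and 673 CPM and its control libraries at 1225 and 1235 CPM, without overlap. The log2 fold change was -0.88 (SE 0.02, adjusted p = 2.98e-23 by edgeR), which is 1.84-fold lower, and relative to the summed members it was -1.02 (SE 0.04). Its share of ribosomal protein counts was 1.04% and 1.07% in the KO and 2.17% and 2.12% in the controls. Genes around RPL8 were lower too. Of its 16 tested protein-coding neighbours, which end with the last ones on the chromosome, 14 were called lower and 1 higher, with a median of -1.45. Among all tested genes 39.8% were called lower and 36.4% higher, shares that are not matched for level. The highest of the 16 was C8orf33, at 34.8 and 34.0 CPM against 58.2 and 59.9 CPM. GPT (0.028 and 0 against 0.88 and 1.13 CPM) and ARHGAP39 (0 and 0 against 0.62 and 0.95 CPM) passed the filter only through the controls. Both count among the 14 and in the median. All 16 neighbours were near the end of the chromosome. They include a cluster of zinc finger genes, such as ZNF251 (6.09 and 5.17 CPM against 22.6 and 22.3 CPM) and ZNF250 (2.62 and 2.63 CPM against 14.1 and 14.2 CPM). The single neighbour called higher was PPP1R16A, at 7.75 and 7.09 CPM against 5.33 and 5.27 CPM.

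The other 4 of the 6 lowest members fell by similar amounts. RPS2, a small subunit protein at the mRNA entry side, stood at 822 and 811 CPM in the KO and 1223 and 1217 CPM in the controls (log2 fold change -0.58, SE 0.02). RPS6, the small subunit protein phosphorylated by S6 kinase downstream of mTOR, stood at 1075 and 1053 CPM against 1556 and 1615 CPM (-0.58, SE 0.02). RPS3, which lines the mRNA entry channel and also acts in DNA repair, stood at 794 and 788 CPM against 1131 and 1173 CPM (-0.54, SE 0.02). In none of the 3 did the groups overlap, which their choice by fold change favours. Of all tested genes 76.2% were called, and the share without overlap is not given here. RPL36A, an X-linked large subunit gene with a short transcript, stood at 211 and 193 CPM against 293 and 305 CPM (-0.57, SE 0.04). These were the lowest CPM of the 6, but per kilobase RPS4X was lower. Per kilobase, RPS4X stood at 353 in the KO and 661 in the controls, and RPL36A at 471 and 697. Below these came RPS15A (-0.46), RPS9 (-0.40), RPL5 (-0.37) and RPL41 (-0.35), all called lower.

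RPL10, which completes the large subunit late in its assembly and sits beside the peptidyl transferase centre, was among the 6 highest. It lies on the X chromosome (154389955 to 154409168, plus strand). Its level was 2385 and 2389 CPM in the KO libraries and 1495 and 1548 CPM in the controls, again without overlap. The log2 fold change was 0.65 (SE 0.02, adjusted p = 1.45e-20 by edgeR), a 1.57-fold higher level, and 0.51 (SE 0.04) relative to the summed members. From 2.65% and 2.66% of the ribosomal protein counts in the controls it stood at 3.73% and 3.81% in the KO. AAMP, the chaperone that carries newly made RPL10 protein, was at 95.6 and 95.4 CPM against 76.9 and 82.2 CPM (0.26, SE 0.04).

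RPS24 and RPS27, both small subunit genes, led at the upper end. RPS24, a Diamond-Blackfan anaemia gene, stood at 917 and 883 CPM in the KO and 550 and 559 CPM in the controls (log2 fold change 0.70, SE 0.03). RPS27, which carries a zinc finger, stood at 1468 and 1403 CPM against 856 and 913 CPM (0.70, SE 0.03). In both the KO libraries lay well above the control libraries. RPL38, a small large-subunit protein known for its role in the translation of Hox mRNAs, stood at 304 and 298 CPM against 192 and 192 CPM (0.65, SE 0.03). RPS13, a small subunit protein at the interface between the subunits, stood at 531 and 520 CPM against 307 and 353 CPM. Its control libraries differed more from each other than those of the other members named here, and its log2 fold change of 0.67 had an SE of 0.08 (adjusted p = 0.00465 by edgeR). RPL13 (0.60), RPS28 (0.59) and RPL13A (0.58) followed, all called higher.

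**Figure D3:**
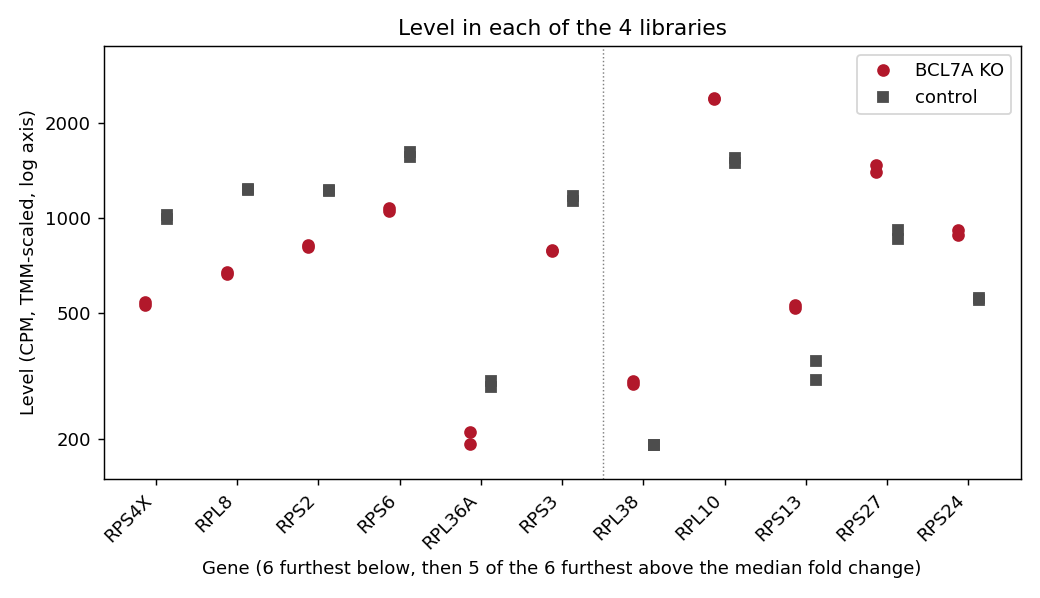
Level in CPM (y axis, log scale) of the 6 members furthest below and 5 of the 6 furthest above the median fold change (x axis), with each of the 2 KO (circles) and 2 control libraries (squares) as a point. In each gene shown the KO points lie on 1 side of the control points, which the choice of genes by fold change favours. RPS13 shows the widest gap between its control libraries, 307 and 353 CPM.

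Both subunits held members that went each way. Of the 46 large subunit genes, 28 were called higher, 11 lower and 7 neither (median log2 fold change 0.15), and of the 31 small subunit genes 19, 9 and 3 (median 0.24); this difference was not tested. Over all members 61.0% were called higher and 26.0% lower, and over all tested genes 36.4% and 39.8%. Some groups of genes whose proteins sit together in the ribosome held members of both directions, and others of 1 direction. These groups are small, and none was tested against those shares. Near the peptidyl transferase centre RPL8 fell (-0.88) while RPL10 (0.65), RPL4 (0.39) and RPL3 (0.10) rose. The call of RPL3 was lost with a stricter filter (0.038) and with upper-quartile factors (-0.038). At the entry side of the mRNA channel RPS2 (-0.58) and RPS3 (-0.54) fell while RPS23 (0.56) and RPS15 (0.52) rose.

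The 5S RNA particle pairs RPL5 and RPL11, whose free forms bind MDM2 and so stabilise p53. RPL5 fell, from 519 and 519 CPM in the controls to 403 and 398 CPM in the KO (-0.37, SE 0.03). RPL11 was close to level, at 719 and 694 CPM in the KO and 650 and 671 CPM in the controls (0.10, SE 0.03), and its call was lost with a stricter filter, with thinned KO counts or without KO replicate 1. With upper-quartile factors it turned to -0.037.

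All 3 genes of the P stalk, the flexible arm of the large subunit that recruits elongation factors, rose with TMM factors. RPLP0, the stalk's base, stood at 2783 and 2735 CPM in the KO and 2074 and 2112 CPM in the controls (0.40, SE 0.02). RPLP1 stood at 1315 and 1307 against 918 and 959 CPM (0.48, SE 0.02), and RPLP2 at 427 and 420 against 371 and 396 CPM (0.14, SE 0.03, a call lost with upper-quartile factors). All 3 genes at the mRNA exit side rose as well: RPS28 (0.59), RPS26 (0.47) and RPS14 (0.40). Of all members 61.0% were called higher, and of the 938 abundant genes outside the family 78.9%, so 3 of 3 sets neither group apart. Of 7 genes around the exit tunnel of the growing chain, RPL26 (0.31), RPL17 (0.18), RPL35 (0.17), RPL31 (0.15) and RPL23A (0.13) rose and RPL39 (-0.21) and RPL19 (-0.06) fell. With upper-quartile factors, of these 5 only RPL26 was still called higher, and the call of RPL19 was lost without either KO library.

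Among 10 genes mutated in Diamond-Blackfan anaemia, 4 were called higher (RPS24, RPS26, RPS19 at 0.24 and RPL11), 2 lower (RPL5 and RPS10 at -0.21) and 4 neither, among them RPS7 (0.07), RPL15 (0.01) and RPL35A (-0.03). Of the 4 X-linked members RPL10 rose, while RPS4X, RPL36A and RPL39 fell. Neither group was tested against all members (61.0% higher, 26.0% lower) or all tested genes (36.4% and 39.8%). Further members without a call were RPL30 (-0.02), RPL29 (-0.02), RPL27 (-0.01), RPL23 (0.00), RPL10A (0.02) and RPS29 (0.09). RPS7 and RPS29 were called higher without KO replicate 2 or without control replicate 2, and RPL29 lower without control replicate 1. With upper-quartile factors RPL30, RPL29, RPL27, RPL23, RPL10A, RPL15 and RPL35A were called lower, and all of these but RPL10A also with a stricter filter. RPL30 and RPL35A were called lower with thinned KO counts too. With no filter RPL30, RPL29, RPL27, RPL23, RPL10A, RPL15, RPS7 and RPS29 were called higher. RPS7 was also called higher with edgeR's RLE scaling factors (0.074), with limma-voom (0.072) and without the robust option (0.073).

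Other members moved by less than the 6 at either end. RPL14, RPS12, RPL28, RPL34, RPS18, RPL12 and RPL32 were called lower, at -0.28 to -0.16. RPS3A, RPL22, RPL36, RPL6, RPL21, RPL7A, RPL37, RPL37A, RPL9, RPSA, RPS20, RPL18, RPL24, RPL7, RPS25, RPS16, RPL27A and RPS21 were called higher, at 0.11 to 0.55. Of these, RPL36 (0.036), RPL22 (-0.026) and RPS3A (-0.024) lost their calls with upper-quartile factors, and RPL22 (0.049) also with a stricter filter. RPS27A, a ubiquitin fused to a small subunit protein, was called higher by 0.07. It lost its call without either KO library, with a stricter filter (0.0079) and with thinned KO counts (0.024), and was called lower with upper-quartile factors (-0.068).

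Position along the chromosome was compared because the membership rule did not use it. Across the 77 members, the log2 fold change and the median of the 20 nearest tested protein-coding genes outside the family gave a Spearman rho of 0.48 (Pearson r 0.48), or a rho of 0.42 with 10 neighbours; all points come from the same 4 libraries and some members share neighbours, so this is a description. Mean level (rho 0.09), length of the principal transcript (0.17), coding length (-0.12) and GC content (0.05) went along with it less. Of the 48 members whose neighbours had a median above 0, 34 were called higher, and of the other 29, 13 were. Among all tested genes 36.4% were called higher and 39.8% lower, and among the 938 abundant genes outside the family 78.9% and 15.8%. The correlation was not computed for genes outside the family, so it is not shown to be particular to the members. Nor were neighbours matched for level, although the share called higher was larger among abundant genes. RPS3 lay, like RPL8, among lower genes, with a neighbour median of -0.73 and 13 of 20 called lower. RPS27 (0.53, 17 of 20 higher), RPL38 (0.49, 12 of 20) and RPL10 (0.40, 13 of 20) lay among higher genes. RPL36A and RPS2 went against their surroundings, with neighbour medians of 0.66 and 0.32, and those of RPS6 (0.07) and RPS4X (0.02) were near 0.

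**Figure D4:**
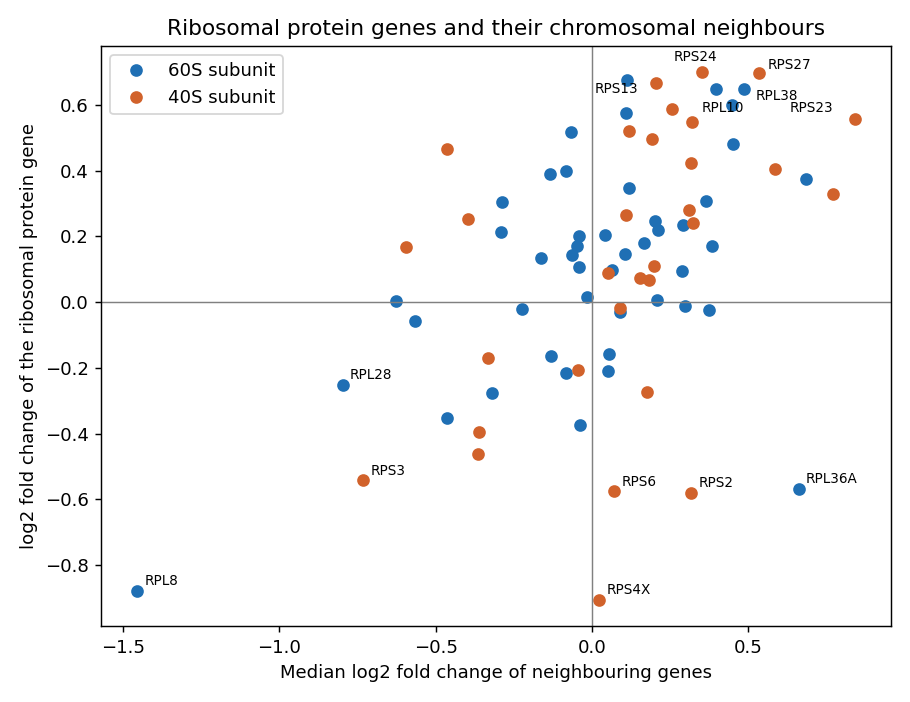
Log2 fold change of each of the 77 members (y axis) against the median log2 fold change of its nearest tested protein-coding neighbours (x axis), coloured by subunit. RPL8 lies at the lower left with a neighbour median of -1.45, while RPS4X, RPS6, RPS2 and RPL36A are low with neighbour medians at or above 0.02.

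Ribosomal protein genes have many processed pseudogenes, and Salmon, which assigns reads by sequence, can divide reads between near-identical copies. The table held 1131 rows named as pseudogenes of members, of which 358 had a count and 71 were tested. Together they took 0.105% to 0.118% of a library's counts, little beside the members. Of the 31-base words in a member's principal transcript, a median of 54.7% were found in no other gene's transcripts. The share was over 90% in 6 members and under 50% in 34. Across members it had a rho of 0.17 with the log2 fold change. For RPL8 (83.6%), RPL10 (72.4%) and RPS4X (71.3%) most words were their own.

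Values for the members with few words of their own are uncertain. RPL9 shared 89.0% of its words with RPL9P9, which was listed at 345 and 339 CPM in the KO and 134 and 134 CPM in the controls (log2 fold change 1.35). Adding the counts of pseudogenes to their parents moved RPL9 from 0.25 to 0.56 and RPS2, whose copy RPS2P5 was higher in the KO (1.71), from -0.58 to -0.49. RPL17 shared 90.6% of its words with the readthrough gene RPL17-C18orf32, RPS10 75.9% with RPS10-NUDT3, and RPL36A 75.9% with RPL36A-HNRNPH2. RPS27 (29.2%), among the 6 highest, also had few of its own.

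Paralogs of the members and fusion genes lie outside the naming rule. Of 8 tested, 6 were called higher and 1 lower, with a median of 0.54. RPS27L, a p53-inducible relative of RPS27, stood at 94.8 and 93.0 CPM in the KO and 41.2 and 41.9 CPM in the controls (1.18, SE 0.04). RPL26L1 rose (0.98, SE 0.06), as did RPL36AL (0.83, SE 0.04), the autosomal relative of RPL36A, at 169 and 156 against 91.5 and 90.8 CPM. RPL36A and RPL36AL thus went opposite ways, with 8.27% of the words of RPL36A shared between them. RPL39L, the testis-rich relative of RPL39, fell (-1.09, SE 0.10) from 18.9 and 21.6 to 9.77 and 9.28 CPM. RPL22L1 (0.36) and RPL7L1 (0.31) rose less. FAU, a ubiquitin-like protein fused to a small subunit protein, stood at 309 and 302 against 299 and 313 CPM and did not pass (0.00, SE 0.03).

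Other genes of translation were described beside the members, without a test of the difference. Of 34 initiation factor genes, 31 were called higher and 2 lower (median 0.55). EIF4A1, the helicase that opens mRNA leaders, stood at 1394 and 1384 against 559 and 557 CPM (1.32, SE 0.02), and the EIF3 complex genes EIF3I (1.26) and EIF3C (1.24) rose by nearly as much. EIF1 (-0.39), which guards start codon choice, and EIF5 (-0.55), which triggers GTP hydrolysis there, fell. Of 7 elongation factor genes, 5 were higher and 1 lower (median 0.54). EEF1A1, which brings aminoacyl-tRNA, stood at 13459 and 13448 against 8499 and 8550 CPM (0.66, SE 0.02), and EEF2, which moves the ribosome along, rose by 0.82. EEF1D was the lower one (-0.83), at 101 and 99.3 against 179 and 178 CPM.

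Of 17 other genes with a TOP start, 14 were higher and 1 lower (median 0.50), although 5 of them are also in the elongation list, 4 in the initiation list and 2 among the paralogs and fusions. BTF3, a chaperone subunit for newly made chains, stood at 543 and 542 against 255 and 263 CPM (1.06, SE 0.03), and RACK1, a scaffold on the small subunit, at 2003 and 1968 against 1000 and 1012 CPM (0.98, SE 0.02). All of these shifts are on the TMM scale. With upper-quartile factors 4 of the 17 were called lower.

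Dedicated chaperones of ribosomal proteins split, with 5 of 9 higher and 3 lower (median 0.26). BCCIP, the chaperone of RPL23, rose (0.90), as did GRWD1, which binds RPL3 (0.78). TSR2, which delivers RPS26, fell (-0.65). Of 14 genes that regulate translation of TOP mRNAs, 8 were higher and 5 lower (median 0.21). LARP1, the TOP-binding repressor, rose from 587 and 570 to 1026 and 1035 CPM (0.83, SE 0.02), and RPS6KB1, which encodes S6 kinase, rose by 0.94. PDCD4, an inhibitor of EIF4A1, was the furthest down, at 61.7 and 59.4 CPM in the KO and 393 and 398 CPM in the controls (-2.71, SE 0.03). Of 11 tested non-coding host genes of small nucleolar RNAs, which share the TOP start, 7 were higher and 2 lower (median 0.19), with SNHG6 (1.10) at the top and SNHG15 (-0.88) at the bottom. These lists are described by count and median only. All tested genes had a median of -0.06 with 36.4% called higher, but the 938 abundant genes outside the family had a median of 0.52 with 78.9% called higher, close to the medians of the initiation, elongation and TOP lists.

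Levels can be compared between genes only per length. Per kilobase of the principal transcript, averaged over all 4 libraries, RPS27 (3231 CPM per kb), RPL41 (2435), RPS18 (2337), RPLP0 (1992) and RPL17 (1792) were highest. RPL37 (106), RPL27A (148), RPL37A (178), RPL22 (201) and RPL38 (211) were lowest. In the controls alone the order was RPL41 (2730), RPS18 (2474), RPS27 (2464), RPS15A (1811) and RPLP0 (1718). The order also rests on the choice of length, since several annotated principal transcripts are far longer than the coding part. Per kilobase of coding length RPL41 (15224) was highest and RPL5 (516) lowest, and the rank correlation of both orders over the 77 members was 0.50.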

How the data were processed

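The values are estimated counts of reads per gene, which the authors obtained with Salmon 0.12 and the build GRCh38, per the submitters' processing notes, and deposited as 1 table. The deposited values were whole, so none was rounded. Neither annotation nor strand setting is given in the sources used here. Antisense and overlapping genes are therefore uncertain. All gene names matched GENCODE release 29, from which gene coordinates and lengths were taken, and the 92 ERCC spike-in rows entered neither library sizes nor tests.

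The 2 KO and 2 control libraries were compared with edgeR 4.0.16 in R 4.3.3 (filterByExpr, TMM factors of 0.909 and 0.906 in the KO and 1.10 in both controls, estimateDisp, glmQLFit with robust=TRUE, glmQLFTest), with Benjamini-Hochberg adjustment over all 17885 tested genes and 0.05 as threshold. Log2 fold changes are KO over control, with the absolute value divided by the square root of F as SE. Rose and fell mean a call in that direction. A second fit set each library's size to the summed counts of the members. The scripts were run on simulated data in which few genes were changed, equally in both directions. In the real data 76.2% of tested genes were called, so that run does not check the scaling used here. Alternatives were other scaling factors and filters, DESeq2 1.42.0, limma-voom (limma 3.58.1), a replicate block, each library left out, KO counts thinned to control depth, pseudogene counts added and a threshold of 0.01.

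Values of a few single genes are not reported here, although they count in all sums and numbers of calls. Members and lists were chosen with earlier results of these data known. Named were RPL8, RPL10, the 6 members furthest to each side of the median, the 5 with the highest and lowest level per length, members of position and disease groups, members whose call changed, the leading genes of each list by p, and the paralogs, as far as they are reported. RPS15A, RPS9, RPL41, RPL13 and RPL13A, AAMP, TSR2, EIF1, EIF5, SNHG15 and the neighbours of RPL8 were named after their values were seen.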

Additional observations from a re-analysis of the deposited data

How the results depend on the processing

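Direction of the family depended on scaling. With no scaling factors, added after seeing the data, 22 members were called higher and 45 lower. In the other settings, 35 to 56 were higher and 19 to 29 lower. Leaving out 1 library gave 45 to 49 higher and 19 to 21 lower. In the share fit the alternatives gave 26 to 33 higher and 26 to 30 lower. RPL8 kept its call in the planned settings, at -1.01 to -0.79, as did RPS4X at -1.04 to -0.82 and RPL10 at 0.52 to 0.73. Upper-quartile factors moved the median of all tested genes by -0.13 and turned RPL10A to -0.12, RPL11 to -0.037, RPL3 to -0.038, RPL15 and RPL23 to -0.13, RPL22 to -0.026, RPS27A to -0.068 and RPS3A to -0.024. No filter, which adds genes with low counts to those tested, moved the median of all tested genes by -0.17. The members' median went the other way, from 0.17 to 0.25, and RPL19 turned to 0.025, RPL27 to 0.070, RPL29 to 0.064 and RPL30 to 0.060. A stricter filter turned RPL15 to -0.051 and RPL23 to -0.056. The cause was not tested.

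With the replicate number as a block, 47 members were higher and 19 lower, and 27 and 28 in the share fit. RPL19 lost its call with the block. The labels give same-numbered libraries no link but the number. Their deviations from the group means had a correlation of 0.00 over all genes and -0.23 over the members. With 2 libraries in each group this cannot decide whether they share a batch.

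The control libraries were less deep than the KO libraries, and with KO counts thinned to their depth 45 members were higher and 22 lower.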
